A study of Mus musculus with 8 samples.

Results

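Small nucleolar RNAs (snoRNAs) and the spliced noncoding genes that carry them were followed through 8 RNA-seq libraries of B16F10 cells, a mouse melanoma line. The members were all rows of the expression table whose symbol is Snora, Snord or Scarna with a number and at most 1 letter, or Snhg with a number, together with *Gas5*. These were 146 of 55414 genes: 38 Snora, 82 Snord and 8 Scarna genes, called short RNAs here (128 in all), and 18 host genes, which are *Gas5* and 17 Snhg rows, 2 of them named *Snhg4*. All 146 were found by identifier in the annotation used here.

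Each of the 4 groups had 2 libraries, made from total RNA after removal of ribosomal RNA and 24 h of culture. Wild-type (WT) cells and CypD KO cells, in which the gene *Ppif* for the mitochondrial protein cyclophilin D had been targeted with CRISPR-Cas9, were kept at 21% O2. The other groups were kept at 1% O2: Control cells, a stable line with empty pcDNA, and CypD OE cells, a stable line with pcDNA-CypD. The KO cells were selected with puromycin and the vector-carrying cells with G418, in both cases as resistant clones, and whether a library came from 1 clone is not stated in the sources used here. WT cells are not labelled as carrying a vector, so the effects of oxygen and of the vector cannot be told apart between Control and WT. Nothing in the labels says that the libraries of a group were separate cultures, so p-values measure the spread between these libraries, which may be technical.

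In the targeted gene, *Ppif*, the KO libraries had 10.4 and 12.1 TPM (a level relative to all other transcripts and per transcript length) against 50.7 and 50.0 in WT (log2 change -2.07 ± 0.07 SE, adjusted p = 3.8e-06). The OE libraries had 50.3 and 49.3 TPM against 44.6 and 42.3 in Control (log2 change 0.19 ± 0.07 SE, adjusted p = 0.0794), which is not past the threshold of 0.05. For CypD protein, the paper reports western blots with overexpression in the pcDNA-CypD clones and no expression in the KO clones. Protein was not measured in the libraries used here. Since the RNA change did not pass the threshold, the libraries of this group are called labelled CypD OE. Each direction given for them rests on that label. All 7 melanocyte markers were above 0 in every library, with summed levels of 15665 and 15755 TPM in WT, 12433 and 12587 in KO, 20446 and 20984 in Control, and 13586 and 13758 in labelled OE. Single markers did not all follow these sums. Against WT, *Tyr* was higher in KO (157 against 39.3 TPM on average), *Mitf* did not pass the threshold and 5 were lower. Against Control, *Sox10* was higher in labelled OE (272 against 237 TPM), *Mlana* and *Tyr* did not pass the threshold and 4 were lower. The 7 fibroblast markers summed to 9.23 to 37.2 TPM, highest in the KO libraries, with *Dcn* and *Thy1* at 0 throughout and 4 of 7 under 1 TPM throughout. Of the 2 fibroblast markers tested, *Postn* was higher in KO (33.0 against 8.06 TPM on average) and *Col1a2* lower (1.63 against 7.95 TPM). The 7 leukocyte markers summed to 1.15 to 25.3 TPM, also highest in the KO libraries, with *Cd3e* at 0 throughout and 5 of 7 under 1 TPM throughout. Of the 2 leukocyte markers tested, *Cd68* (22.6 against 3.60 TPM on average) and *Lyz2* (1.825 against 0.405 TPM) were both higher in KO. Whether these markers have a part in the results was not tested, and in such bulk samples fewer cells of a type and less RNA per cell cannot be told apart.

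As background, snoRNAs are short nuclear RNAs that pair with ribosomal RNA and direct proteins to it. Box C/D snoRNAs (Snord) guide ribose methylation and box H/ACA snoRNAs (Snora) guide pseudouridylation, and a few of each act instead in the cleavage of the ribosomal RNA precursor. Small Cajal body RNAs (Scarna) guide the same changes in spliceosomal RNAs. In mammals most of them are cut from the introns of host genes after splicing. Some hosts code for ribosomal or translation proteins. Others, the Snhg genes and *Gas5*, are noncoding, and several of these begin transcription within a pyrimidine stretch, the terminal oligopyrimidine motif shared with ribosomal protein genes, and are degraded by nonsense-mediated decay once they reach ribosomes.

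The short RNAs on which the results below turn are shown first, with the annotated gene on GRCm39, in the 5′ to 3′ direction of its strand. They are the 6 printable members with the largest tested changes or the highest levels among Snora and Scarna genes, and the 2 Snord genes of highest level. *Scarna10* and *Snora74a* belong to the same set and are named only. Capitals mark an ACA that ends 3 bases before the 3′ end in Snora and Scarna genes, and CTGA (box D) within the last 15 bases in Snord genes. *Snora17* has no ACA at that place and is printed without capitals.
*Snora73b* (chr4:132079633-132079837, minus strand): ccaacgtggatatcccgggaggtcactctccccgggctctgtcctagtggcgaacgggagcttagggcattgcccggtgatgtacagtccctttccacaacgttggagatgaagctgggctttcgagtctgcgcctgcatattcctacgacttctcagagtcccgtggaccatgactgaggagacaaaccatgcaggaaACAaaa
*Snora65* (chr2:32853303-32853432, plus strand): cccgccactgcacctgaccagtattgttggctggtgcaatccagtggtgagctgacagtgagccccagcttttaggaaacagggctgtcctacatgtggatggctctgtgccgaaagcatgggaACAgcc
*Snora33* (chr10:23661245-23661373, minus strand): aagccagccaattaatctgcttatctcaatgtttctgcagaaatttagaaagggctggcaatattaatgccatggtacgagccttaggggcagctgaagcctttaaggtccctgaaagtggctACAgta
*Snora17* (chr2:26529202-26529333, minus strand): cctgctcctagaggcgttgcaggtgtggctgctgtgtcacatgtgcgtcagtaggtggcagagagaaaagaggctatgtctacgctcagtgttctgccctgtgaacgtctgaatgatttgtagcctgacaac
*Snora41* (chr1:63218163-63218294, plus strand): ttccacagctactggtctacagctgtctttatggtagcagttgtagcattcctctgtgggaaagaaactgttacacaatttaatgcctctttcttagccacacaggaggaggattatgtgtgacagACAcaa
*Scarna13* (chr12:104997334-104997608, minus strand): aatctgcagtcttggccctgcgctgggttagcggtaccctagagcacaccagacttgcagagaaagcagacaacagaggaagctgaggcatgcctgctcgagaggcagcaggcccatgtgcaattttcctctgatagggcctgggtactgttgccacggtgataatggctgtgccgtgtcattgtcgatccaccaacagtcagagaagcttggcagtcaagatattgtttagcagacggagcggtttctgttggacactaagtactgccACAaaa
*Snord22* (chr19:8703230-8703355, plus strand): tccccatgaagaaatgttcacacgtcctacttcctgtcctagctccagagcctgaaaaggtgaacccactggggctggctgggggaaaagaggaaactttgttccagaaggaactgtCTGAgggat
*Snord16a* (chr9:64082705-64082803, plus strand): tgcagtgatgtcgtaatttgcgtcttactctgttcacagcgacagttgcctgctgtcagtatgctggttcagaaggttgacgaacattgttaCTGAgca

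Among all 38 Snora genes, 31 (81.6%) had the ACA at this place. Of the 82 Snord genes, 75 had CTGA in the last 15 bases, 46 had TGATGA (box C) in the first 15 bases, and 44 (53.7%) had both. Of the 8 Scarna genes, 4 had both C/D letters and 2 had the ACA. Only the strand of the gene was searched, the letters are a description of the annotated ends, and a missing match says only that these letters are not in that window.

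The annotation places 87 of the 128 short RNAs within 67 protein-coding genes, 22 within a host among the members, and 19 within other noncoding genes. *Snora65* lies in *Rpl12*, *Snora33* in *Rps12*, *Snora70* in *Rpl10*, *Snord16a* in *Rpl4* and *Snord15a* in *Rps3*, genes of ribosomal proteins. *Snora41* lies in *Eef1b2*, a translation elongation factor gene, *Snora23* in *Ipo7*, an import receptor gene, and *Scarna10* in *Ncapd2*, a condensin gene. *Snora73a* and *Snora73b* lie in *Snhg3*, *Snora74a* in *Snhg4*, *Snord22* in *Snhg1* and *Scarna13* in *Snhg10*. Of the 87 in protein-coding genes, 44 also lay within an annotated exon of that gene, as did 20 of the 22 in member hosts. Where a short RNA and an exon overlap, estimated counts divide the fragments between the 2 genes, so such values are uncertain. Among the short RNAs called below, this held for *Snora65*, *Snora33*, *Snora70*, *Snora74a* and *Scarna13* within an exon of their host. *Snora73b* lay within an exon of another gene on its strand, and *Snora17* within an exon of *Snhg7*. *Snora23* lay within no such exon.

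What share of these RNAs the libraries could register was examined first, because a sequenced fragment must lie within the transcript. Low TPM values of genes outside the members were closest to whole numbers of fragments with a fragment length of 200 to 210 bases on average (SD 87.5 to 97.5). On a transcript of 100 bases 1 fragment was then worth 66.3 to 91.5 TPM, on 130 bases 15.3 to 19.7 TPM and on 200 bases 2.48 to 3.08 TPM. A value of 0, which 3 fragments at most would allow, therefore covers levels of up to 46.0 to 59.2 TPM for an RNA of 130 bases and 199 to 275 TPM for one of 100 bases. These limits cover counting error only and rest on estimated fragments.

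Of the 128 short RNAs, 30 were above 0 in any library and 98 were listed at 0 in all 8. Detection followed length. Of the 70 members of up to 99 bases 1 was above 0 in any library, of the 9 of 100 to 124 bases 3, of the 38 of 125 to 149 bases 17, of the 3 of 150 to 199 bases 2, and of the 8 of 200 bases or more 7. By class, these were 19 of 38 Snora genes (median length 132.5 bases), 7 of 82 Snord genes (median 78.5 bases) and 4 of 8 Scarna genes (median 198 bases). *Scarna13* was the 1 member above 0 in every library.

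**Figure D1:**
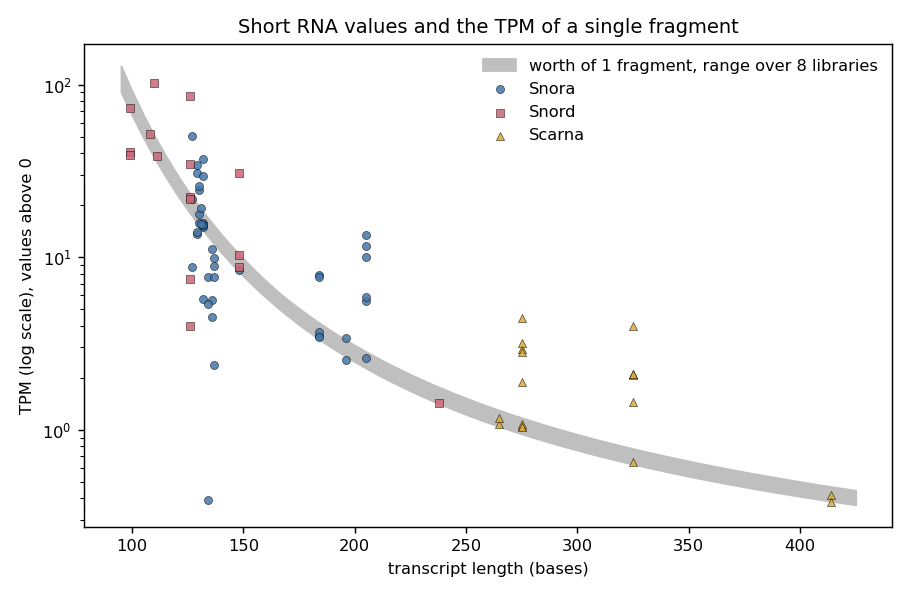
TPM of each short RNA in each library where it was above 0 (y axis, log scale) against transcript length in bases (x axis), as circles for Snora, squares for Snord and triangles for Scarna, with the worth of 1 fragment over the 8 libraries as a grey band. Of the 78 values, 42 were nearest to 1 fragment, and the points follow the band from about 100 TPM at the shortest to under 1 TPM at the longest transcripts.

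In fragments, the 128 short RNAs held an estimated 118 over all 8 libraries, 57.8 in Snora, 39.6 in Scarna and 21.0 in Snord genes. A single library had 8.71 to 22.0 of them, on 7 to 14 members. The KO libraries had 8.71 and 11.5 estimated fragments and WT 17.6 and 13.8. The labelled OE libraries had 20.1 and 22.0 and Control 10.3 and 14.3. The lower group of each pair did not overlap the other, but each sum is a handful of fragments, and 2 libraries against 2 cannot reach a p under 0.333 in an exact permutation test. The sums are also not scaled for depth or fragment length. On 130 bases 1 fragment was worth 19.7 and 18.1 TPM in WT and 16.2 and 17.0 in KO. In Control it was worth 18.5 and 19.6 TPM and in labelled OE 15.3 and 16.5. Of the 1024 values, 78 were above 0: 42 were nearest to 1 fragment, 12 nearest to 2, 14 over 2.5, and 10 under 0.5, which are parts of fragments assigned by the estimation. The highest was 6.24 fragments, for *Scarna10* in labelled OE replicate 2, and 47 of the 78 lay within 0.15 of a whole number.

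**Figure D2:**
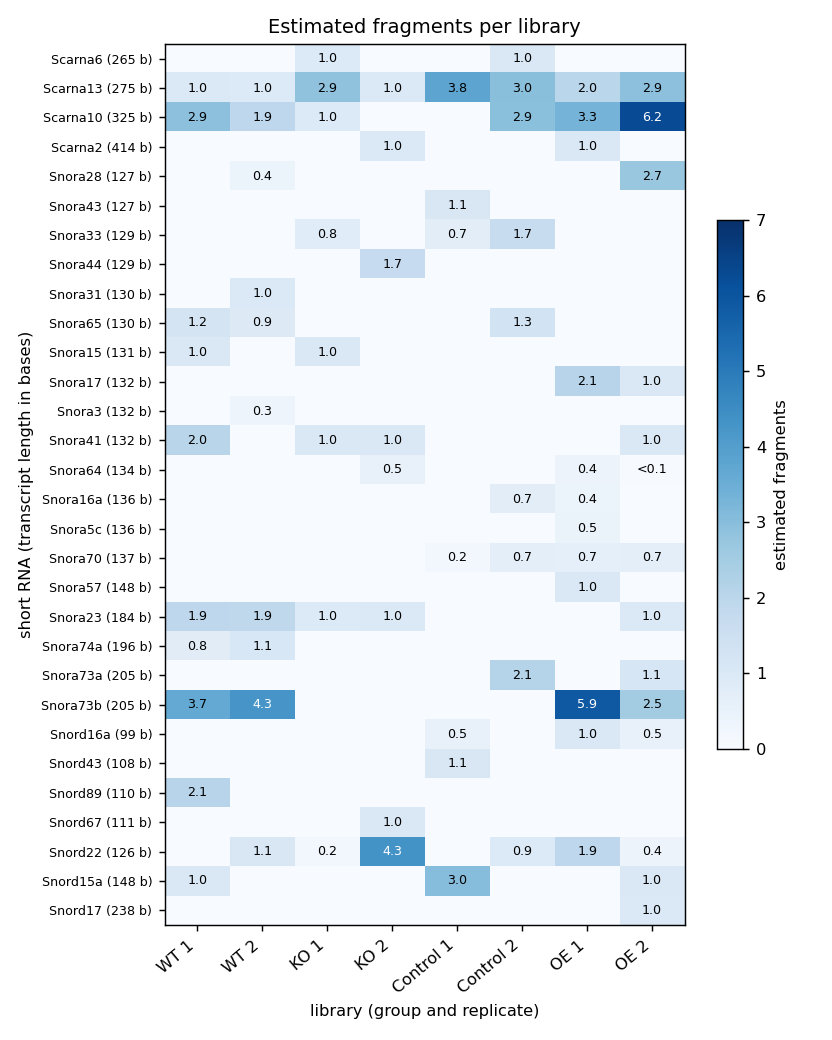
Estimated fragments of the 30 short RNAs above 0 in any library (rows, with transcript length in bases; b, bases) in each library (columns, group and replicate), with blank cells at 0 and darker blue for more fragments. Most cells are blank, most filled cells hold about 1 fragment, and the highest holds 6.2.

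Among box H/ACA snoRNAs, the 5 of highest mean level were *Snora41*, *Snora65*, *Snora33*, *Snora28* and *Snora17*, at 10.4 to 5.60 TPM. *Snora41* had 37.2 and 0 TPM in WT, 14.9 and 15.8 in KO, 0 in both Control libraries, and 0 and 15.4 in labelled OE, which correspond to 2 fragments in the first library and 1 in each of the others above 0. *Snora28*, in *Eif5*, had 50.4 TPM in labelled OE replicate 2 and 8.73 in WT replicate 2, with 0 elsewhere. The order of these levels is an order of 3.08 to 5.04 fragments in total per gene and does not separate them.

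*Snora73b*, the U17 type of snoRNA that acts in cleavage of the ribosomal RNA precursor, held the most fragments of any Snora gene, 16.3 in all. It had 9.99 and 11.6 TPM in WT, 0 in both KO libraries, 0 in both Control libraries, and 13.4 and 5.89 TPM in labelled OE. Its fragments were an estimated 3.7 and 4.3 in WT and 5.9 and 2.5 in labelled OE. *Snora73a*, named here as its neighbour of the same length in *Snhg3*, had 5.57 TPM in Control replicate 2 and 2.59 in labelled OE replicate 2, with 0 elsewhere, so the 2 copies did not follow each other at this depth. Fragments that match both copies may be divided between them, so their values are uncertain.

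Among box C/D snoRNAs, *Snord22*, which lies in *Snhg1* and acts in ribosomal RNA processing, had the highest mean level, 22.0 TPM. It had 0 and 22.3 TPM in WT, 3.98 and 85.8 in KO, 0 and 21.6 in Control, and 34.5 and 7.47 in labelled OE. In WT, KO and Control alike, 1 library was at 3.98 TPM or less and the other at 21.6 or more. *Snord16a* had 40.5 TPM in Control replicate 1 and 73.2 and 38.8 in labelled OE, or 2.04 fragments in all. *Snord89* had 102 TPM in WT replicate 1 and *Snord43* 51.9 in Control replicate 1, each with 0 in the other 7 libraries. The annotation used here gives the *Snord43* row the type miRNA and not snoRNA. *Snord15a* had 10.4 TPM in WT replicate 1, 30.6 in Control replicate 1 and 8.77 in labelled OE replicate 2.

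The 8 Cajal body RNAs ran from 70 to 414 bases, and 4 of them were above 0 in any library. *Scarna13* had 1.05 and 1.08 TPM in WT, 2.93 and 1.03 in KO, 4.43 and 3.16 in Control, and 1.89 and 2.82 in labelled OE. *Scarna10* had 2.09 and 1.45 TPM in WT, 0.65 and 0 in KO, 0 and 2.07 in Control, and 2.10 and 3.99 in labelled OE. Its KO libraries lay under its WT libraries, and its labelled OE libraries above its Control libraries, but neither change passed the test (log2 changes -1.10 and 1.17, both ± 0.54 SE, adjusted p = 0.139 for each). *Scarna6* and *Scarna2* had 1.94 and 1.97 fragments in all. The other 4 Scarna genes, of 70 to 131 bases, were listed at 0 throughout, at lengths where few fragments can lie.

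For tests, log2(TPM + 1) was fitted with limma over the 13526 genes that reached 1 TPM in 2 or more libraries, and genes with an adjusted p under 0.05 were called. Among the short RNAs 19 of 128 passed this filter, several only through the group in which they were above 0, so their counts are a description and no support for a difference. At 21% O2, 3 short RNAs were called lower in CypD KO and 0 higher by limma (0 higher also at an unadjusted p under 0.05), where 48.4% of all genes tested were called, 30.1% higher and 18.4% lower. *Snora65* had 24.4 and 15.9 TPM in WT and was listed at 0 in both KO libraries (log2 change -4.37 ± 1.30 SE, adjusted p = 0.0298), on 2.11 fragments in all. Leaving out any single library of this comparison raised that p to between 0.0832 and 0.117. *Snora73b* was also listed at 0 in KO (log2 change -3.56 ± 0.32 SE, adjusted p = 0.000157, on 7.92 fragments). *Snora74a* had 2.53 and 3.41 TPM in WT and was listed at 0 in KO (log2 change -1.98 ± 0.19 SE, adjusted p = 0.000217, on 1.86 fragments). These log2 changes depend on the 1 TPM added and are no bound on a fold. *Snora65* and *Snora74a* would not have passed the filter without their WT libraries, so their p-values here are no support for a difference. In *Snora74a* all groups but WT were at 0 and added no spread to its SE. *Snora73b* passed the filter only through WT and labelled OE, and KO and Control at 0 added no spread to its SE. Its p-values here and below are therefore no support for a difference.

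At 1% O2, 2 short RNAs were called higher and 1 lower in the libraries labelled CypD OE, where 37.4% of all genes tested were called, 19.0% higher and 18.3% lower. *Snora73b* was higher, from 0 in both Control libraries (log2 change 3.31 ± 0.32 SE, adjusted p = 0.000365, on 8.37 fragments). For the reason given above, this p-value is no support for a difference. *Snora17*, which lies in *Snhg7*, a host that is no row of the table, had 29.4 and 15.4 TPM in labelled OE and 0 in the other 6 libraries (log2 change 4.48 ± 0.28 SE, adjusted p = 6.35e-05, on 3.08 fragments). *Snora17* passed the filter only through the labelled OE libraries, and the groups at 0 added no spread to its SE. Its p-value is therefore no support for a difference. *Snora33* was lower, with 14.0 and 34.3 TPM in Control and 0 in labelled OE (log2 change -4.52 ± 1.11 SE, adjusted p = 0.0185, on 2.41 fragments). *Snora33* would not have passed the filter without Control, so its call is no support for a difference either. That call ended without Control replicate 2 (adjusted p = 0.0946) and without either labelled OE library (adjusted p = 0.0768 for each).

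Between Control and WT, which share libraries with both comparisons above, 3 short RNAs were called higher and 3 lower, where 24.2% of all genes tested were called, 12.1% in each direction. *Scarna13* was higher in Control (log2 change 1.20 ± 0.32 SE, adjusted p = 0.0382, on 8.64 fragments), and the call ended without any single library of the comparison (adjusted p 0.0769 to 0.161). The others were *Snora33* (2.41 fragments) and *Snora70* (0.827 of a fragment) among those higher, and *Snora23* (3.84 fragments), *Snora73b* and *Snora74a* among those lower. In each of these 5 the lower group was listed at 0. *Snora33* would not have passed the filter without Control, nor *Snora74a* without WT, so these calls are also no support for a difference. *Snora73b* passed it only through WT and labelled OE, and *Snora70* only through Control and labelled OE. Their other groups were at 0 and added no spread, so their calls are no support either. Without a single library the call ended for *Snora33* (adjusted p 0.0659 to 0.127) and *Snora23* (0.0534 to 0.0553), whichever of the 4 was left out, and for *Snora70* without WT replicate 2 (0.0509). Every called short RNA in the 3 comparisons thus rested on fewer than 9 estimated fragments, and most on fewer than 4.

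Other short noncoding RNAs, of kinds outside the members and fixed as a list of 15 names, had 11 rows. Of these, 4 were listed at 0 throughout and 6 were tested. By limma 0 rows were called between KO and WT (0 at an unadjusted p under 0.05) and 0 between Control and WT (1 at an unadjusted p under 0.05). *Rny3*, a Y RNA, was called lower in labelled OE, with 71.0 and 74.3 TPM in Control and 0 in labelled OE (log2 change -6.20 ± 1.74 SE, adjusted p = 0.0299). Its Control values are 1.05 and 0.922 of a fragment on 102 bases, and its WT libraries had 79.2 and 0 TPM. *Terc*, the telomerase RNA, which also carries an H/ACA domain, had 0.91 TPM in 1 library and 0 in 7. *Rn7s1* and *Rn7s2*, copies of the signal recognition particle RNA, had identical values in 7 of 8 libraries, and fragments that match both copies may be divided between them. Libraries of the same group differed. In the Control libraries *Rmrp* had 12.7 and 1.10 TPM, *Rpph1* 12.3 and 0.73, and the 11 rows together 359 and 188. These sums were 164 and 186 TPM in WT, 193 and 165 in KO, and 175 and 115 in labelled OE.

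The spliced hosts were far better measured. In each library they summed to 1313 to 1669 TPM, of which *Gas5* alone held 51.1% to 56.2%. In WT the order of mean levels was *Gas5* (839 TPM), *Snhg6* (169), *Snhg1* (151), *Snhg8* (93.6), *Snhg3* (90.6), *Snhg5* (60.6), *Snhg15* (47.7), *Snhg12* (39.6), *Snhg4* with identifier ENSMUSG00000117869 (36.1), *Snhg20* (30.8), *Snhg17* (29.8) and *Snhg16* (19.3). Of the neighbours in this order, *Snhg8* and *Snhg3* overlapped in their WT libraries, and whether neighbours differ was not tested. *Snhg10*, *Snhg9* and the second *Snhg4* (ENSMUSG00000117694) were under 10 TPM in WT on average. *Snhg14* stayed at 0.33 to 1.07 TPM, *Snhg11* at 0.06 TPM at most, and *Snhg18* was listed at 0. The 15 others were tested.

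**Figure D3:**
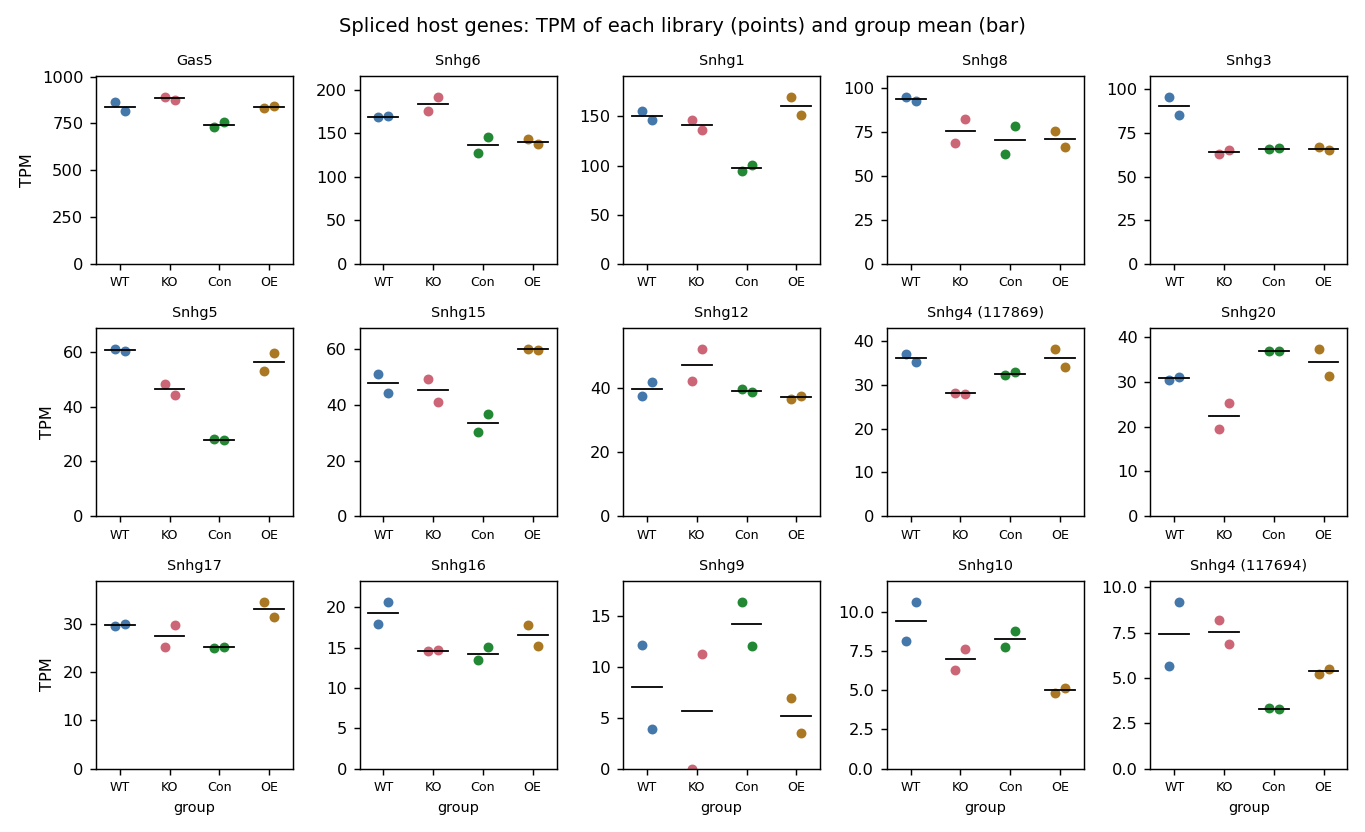
TPM (y axis, from 0) of the 15 tested host genes, 1 panel each, in every library (points) and as group mean (bar) for WT, CypD KO (KO), Control (Con) and labelled CypD OE (OE). *Snhg5*, *Snhg1* and *Snhg15* had their lowest libraries in Control, and *Snhg3* was highest in WT.

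At 21% O2, 5 of 15 hosts were lower in CypD KO and 0 higher by limma, and 7 and 0 at an unadjusted p under 0.05 (all genes tested: 18.4% lower, 30.1% higher), with a median host log2 change of -0.32 against 0.09 over all genes. *Snhg3* (chr4:132075325-132080997, minus strand), the host of *Snora73a* and *Snora73b*, had 95.8 and 85.4 TPM in WT and 63.2 and 65.2 in KO. It fell to 70.9% of the WT mean (log2 change -0.49 ± 0.06 SE, adjusted p = 0.0006), and its groups did not overlap. *Snhg5* (chr9:88377321-88405615, minus strand), the host of *Snord50a* and *Snord50b*, had 61.0 and 60.2 TPM in WT and 48.4 and 44.2 in KO. It fell to 76.4% of the WT mean (log2 change -0.38 ± 0.07 SE, adjusted p = 0.0039). Both hosts were thus lower in each KO library than in either WT library. *Snhg4* (ENSMUSG00000117869), the host of *Snora74a*, had 37.1 and 35.2 TPM in WT and 28.3 and 28.0 in KO (log2 change -0.35 ± 0.07 SE, adjusted p = 0.0048). *Snora73b* and *Snora74a*, listed at 0 in KO above, rested on 7.92 and 1.86 fragments, so the size of their change cannot be set against that of their hosts.

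*Snhg20* and *Snhg16* were called at a smaller margin. *Snhg20* had 30.5 and 31.1 TPM in WT and 19.4 and 25.3 in KO (log2 change -0.46 ± 0.13 SE, adjusted p = 0.0236). That call ended without WT replicate 1 (adjusted p = 0.077), WT replicate 2 (0.0902) or KO replicate 1 (0.0977). *Snhg16*, the host of *Snord1a*, *Snord1b* and *Snord1c*, had 17.9 and 20.7 TPM in WT and 14.6 and 14.7 in KO (log2 change -0.37 ± 0.11 SE, adjusted p = 0.0277), and the call ended without WT replicate 2 (0.14), KO replicate 1 (0.102) or KO replicate 2 (0.0959).

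The most abundant hosts were not called in KO. *Gas5* (chr1:160861793-160866118, plus strand), the host of *Snord47*, *Snord78* and *Snord80* and known to accumulate when growth stops, had 862 and 816 TPM in WT and 893 and 875 in KO (log2 change 0.08 ± 0.03 SE, adjusted p = 0.115). After median-of-ratios rescaling this change was -0.04 (adjusted p = 0.4), and without WT replicate 1 it was called at 0.12 (adjusted p = 0.049). *Snhg6* had 169 TPM in both WT libraries and 175 and 192 in KO (log2 change 0.12 ± 0.07 SE, adjusted p = 0.229). *Snhg1* had 156 and 146 TPM in WT and 146 and 137 in KO (log2 change -0.09 ± 0.07 SE, adjusted p = 0.298), and *Snhg8* 94.9 and 92.4 in WT and 68.6 and 82.2 in KO (log2 change -0.32 ± 0.13 SE, adjusted p = 0.0828). Rescaling by median of ratios lowered all KO values against WT and called both, *Snhg1* at -0.21 (adjusted p = 0.0292) and *Snhg8* at -0.43 (adjusted p = 0.027), with 8 hosts lower in all. It moved the median of all genes from 0.09 to -0.01 and the calls from 4066 higher and 2486 lower to 3204 higher and 3481 lower.

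At 1% O2, 5 of 15 hosts were higher and 1 lower in labelled CypD OE than in Control (all genes tested: 19.0% higher, 18.3% lower), with a median host log2 change of 0.14 against 0.002 over all genes. *Snhg5* had 28.1 and 27.8 TPM in Control and 53.2 and 59.7 in labelled OE, 202% of the Control mean (log2 change 0.99 ± 0.07 SE, adjusted p = 0.000102). *Snhg1* (chr19:8700319-8703812, plus strand), the host of *Snord22*, had 94.9 and 100.6 TPM in Control and 170.1 and 151 in labelled OE (log2 change 0.71 ± 0.07 SE, adjusted p = 0.000382). *Snhg15* (chr11:6473829-6478870, minus strand), the host of *Snora9*, had 30.2 and 36.8 TPM in Control and 60 and 59.8 in labelled OE (log2 change 0.83 ± 0.12 SE, adjusted p = 0.00234). In all 3 hosts both labelled OE libraries lay above both Control libraries.

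The other calls at 1% O2 were smaller. *Gas5* had 729 and 758 TPM in Control and 833 and 843 in labelled OE (log2 change 0.17 ± 0.03 SE, adjusted p = 0.00832), and without the trend in the variance the adjusted p was 0.0537. *Snhg17* had 25.1 and 25.3 TPM in Control and 34.7 and 31.6 in labelled OE (log2 change 0.38 ± 0.09 SE, adjusted p = 0.0134). Its call ended without Control replicate 1 (0.0583), Control replicate 2 (0.0549) or labelled OE replicate 1 (0.0779). *Snhg10*, the host of *Scarna13*, was the 1 host called lower, with 7.77 and 8.76 TPM in Control and 4.82 and 5.16 in labelled OE (log2 change -0.63 ± 0.15 SE, adjusted p = 0.0169). Its call ended without Control replicate 2 (0.0859), labelled OE replicate 1 (0.0805) or labelled OE replicate 2 (0.0572), and *Scarna13* overlaps an exon of it.

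*Snhg3* did not differ between these groups beyond the spread of its libraries, with 65.9 and 66.3 TPM in Control and 66.7 and 65.3 in labelled OE (log2 change -0.002 ± 0.058 SE, adjusted p = 0.986), although *Snora73b* within it was listed at 0 in the one group and not in the other. *Snhg6* had 127 and 146 TPM in Control and 143 and 138 in labelled OE (adjusted p = 0.692), and *Snhg8* 62.1 and 78.1 against 75.3 and 66.5 (adjusted p = 0.916).

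Control and WT, which differ in oxygen and vector together, shared the remaining libraries. In Control 8 of 15 hosts were lower and 0 higher by limma, and 10 and 0 at an unadjusted p under 0.05 (all genes tested: 12.1% in each direction), with a median host log2 change of -0.31 against 0.01 over all genes. *Snhg5* was at 46.1% of its WT mean (log2 change -1.09 ± 0.07 SE, adjusted p = 0.000167), and *Snhg1* at 64.8% (log2 change -0.62 ± 0.07 SE, adjusted p = 0.00139). *Snhg3*, *Gas5*, *Snhg6*, *Snhg15*, *Snhg16* and the second *Snhg4* were also lower, by log2 changes of -0.17 in *Gas5* to -0.93 in the second *Snhg4*. Single libraries ended 5 of these calls: *Gas5* without WT replicate 1 (adjusted p = 0.06) or Control replicate 1 (0.0656), *Snhg15* without the same 2 (0.126 and 0.116), the second *Snhg4* without either Control library (0.0709 and 0.0746), *Snhg6* without any but Control replicate 2 (0.0812 to 0.092), and *Snhg16* without any but WT replicate 1 (0.0652 to 0.16). Without the trend in the variance 4 hosts and not 8 were lower. Since Control enters both this comparison and that with labelled OE, low Control values alone would give opposite signs in the 2. The group means of *Snhg5*, side by side, were 60.6 ± 0.6 TPM in WT, 46.3 ± 3.0 in KO, 27.9 ± 0.2 in Control and 56.4 ± 4.6 in labelled OE (SD, n = 2). Those of *Snhg1* were 151 ± 7 in WT, 141 ± 7 in KO, 97.8 ± 4.0 in Control and 161 ± 13 in labelled OE (SD, n = 2).

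**Figure D4:**
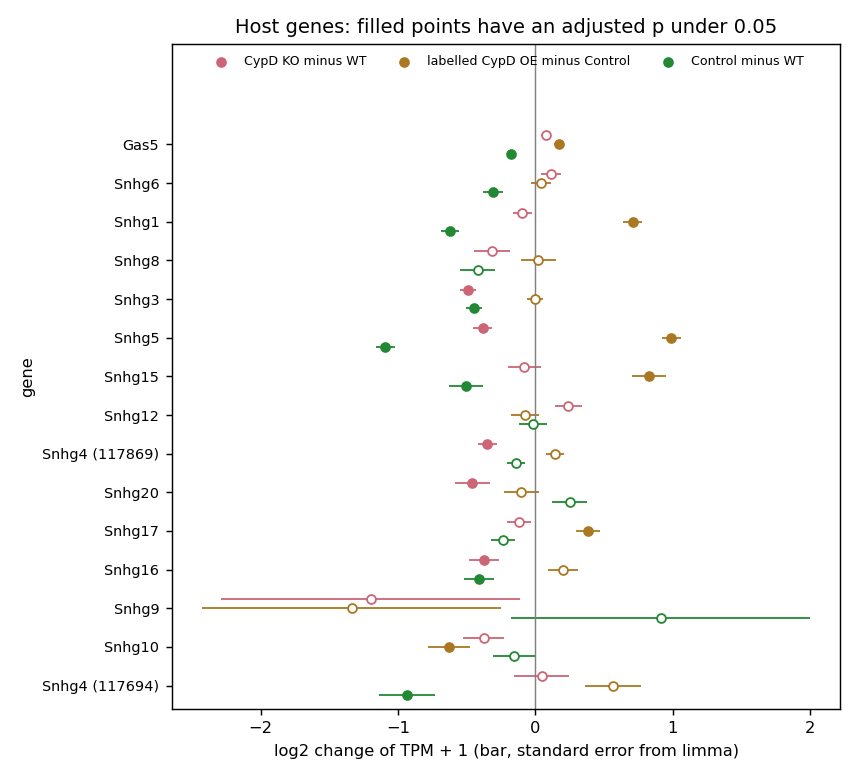
Log2 change of TPM + 1 (x axis; bar, SE from limma) of the 15 tested hosts (y axis, by mean level) in CypD KO minus WT, labelled CypD OE minus Control and Control minus WT, with filled points for an adjusted p under 0.05. Filled points lie left of 0 in KO minus WT (5) and in Control minus WT (8), and 5 of 6 lie right of 0 in labelled OE minus Control.

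Some hosts overlap other genes, which limits their values. Exons of *Rcc1* overlap *Snhg3* on the same strand, and *Matr3* and the other *Snhg4* overlap the second *Snhg4*, which is annotated as protein coding, so fragments may be divided between them. On the opposite strand *Slc3a2* overlaps *Snhg1*, *Zbtb37* overlaps *Gas5*, and *Rps2*, at a mean of 1902 TPM, overlaps *Snhg9*. Whether counting used the strand is not given in the sources used here. *Snhg9* had 12.1 and 3.90 TPM in WT, 0 and 11.2 in KO, 16.4 and 12.1 in Control, and 6.90 and 3.52 in labelled OE, with SEs of 1.09 on the log2 scale, the widest of the tested hosts, and is named for this spread after its values were seen.

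The start of the hosts was compared next, since the pyrimidine run at the start of transcription is the feature that defines oligopyrimidine mRNAs. In RefSeq promoters (GRCm38.p6), 20 bases to each side of the start were searched on the gene's strand for at least 7 C or T in a row. Of 17 promoters of 15 host symbols, 9 (52.9%) held such a run, against 24.3% of 32851 promoters of all genes. The run could lie anywhere in the window, also before the start, so these shares do not measure the motif itself. Below are the windows of the 3 hosts with the largest called changes at 1% O2, with the run in capitals.
*Snhg5* (chr9:88522878-88522917, minus strand): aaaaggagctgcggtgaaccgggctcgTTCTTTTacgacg
*Snhg1* (chr19:8723467-8723506, plus strand): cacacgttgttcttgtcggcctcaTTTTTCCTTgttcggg
*Snhg15* (chr11:6528741-6528780, minus strand): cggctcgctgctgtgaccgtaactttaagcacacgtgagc
*Snhg15* held no run in this window. The other host promoters with a run were those of *Snhg8*, *Snhg9*, *Snhg10*, *Snhg12*, *Snhg16* and *Snhg18* and 1 of the 2 of *Snhg17*. *Gas5* held no run of 7 in either of its windows, but that at chr1:161035146-161035185 has the shorter run cctttc across the start. A match is a description of the letters only, and its part in the changes was not tested.

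The protein-coding genes that hold the other short RNAs could also be followed. Of these 67 genes 65 were tested. In KO 44 were lower and 4 higher than in WT, with a median log2 change of -0.25 (all genes tested: 18.4% lower, 30.1% higher). In labelled OE 22 were higher and 8 lower than in Control, with a median of 0.03 (19.0% higher, 18.3% lower). In Control 26 were lower and 2 higher than in WT, with a median of -0.10 (12.1% each). What the short RNAs within them did cannot be read from the fragments above.

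The genes of proteins that bind, assemble and process snoRNAs were taken from 5 lists with 46 genes, all of them tested. Their values are mRNA levels, and no protein was measured in these libraries. In KO 24 of the 46 were lower and 2 higher, in labelled OE 22 were higher and 2 lower, and in Control against WT 22 were lower and 1 higher, beside the shares of all genes given above. The mRNAs of all 4 box C/D core proteins were lower in KO. *Fbl*, fibrillarin, the ribose methyltransferase, had 244 and 235 TPM in WT and 126 and 122 in KO (log2 change -0.94 ± 0.03 SE, adjusted p = 4e-06), and 187 and 184 in Control against 255 and 250.0 in labelled OE (log2 change 0.44 ± 0.03 SE, adjusted p = 0.000145). *Nop58*, a core scaffold protein, had 1082 and 1155 TPM in WT and 673 and 708 in KO (log2 change -0.70 ± 0.06 SE, adjusted p = 0.000189), and 731 and 642 in Control against 995 and 1022 in labelled OE (log2 change 0.56 ± 0.06 SE, adjusted p = 0.000843). The mRNAs of both were lower in every KO and Control library than in any WT or labelled OE library. *Nop56* followed with log2 changes of -0.25 in KO and 0.21 in labelled OE, both called, and *Snu13*, which binds the kink of the box C/D fold, with -0.44 in KO, called, and 0.06 in labelled OE (adjusted p = 0.298).

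Of the mRNAs of the 4 box H/ACA core proteins 3 were lower and 1 higher in KO. *Dkc1*, dyskerin, the pseudouridine synthase, had 182 and 203 TPM in WT and 123 in both KO libraries (log2 change -0.64 ± 0.10 SE, adjusted p = 0.00187), and it was higher in labelled OE (log2 change 0.41 ± 0.10 SE, adjusted p = 0.0172). *Nhp2* had 272 and 275 TPM in WT and 170 and 168 in KO (log2 change -0.69 ± 0.03 SE), and 193 and 187 in Control against 251 and 250.3 in labelled OE (log2 change 0.40 ± 0.03 SE). The mRNAs of this complex did not move together. *Gar1* was lower in KO (log2 change -0.65 ± 0.04 SE) and also lower in labelled OE (log2 change -0.29 ± 0.04 SE, adjusted p = 0.00171), and *Nop10* was higher in KO (log2 change 0.26 ± 0.05 SE, adjusted p = 0.00486).

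**Figure D5:**
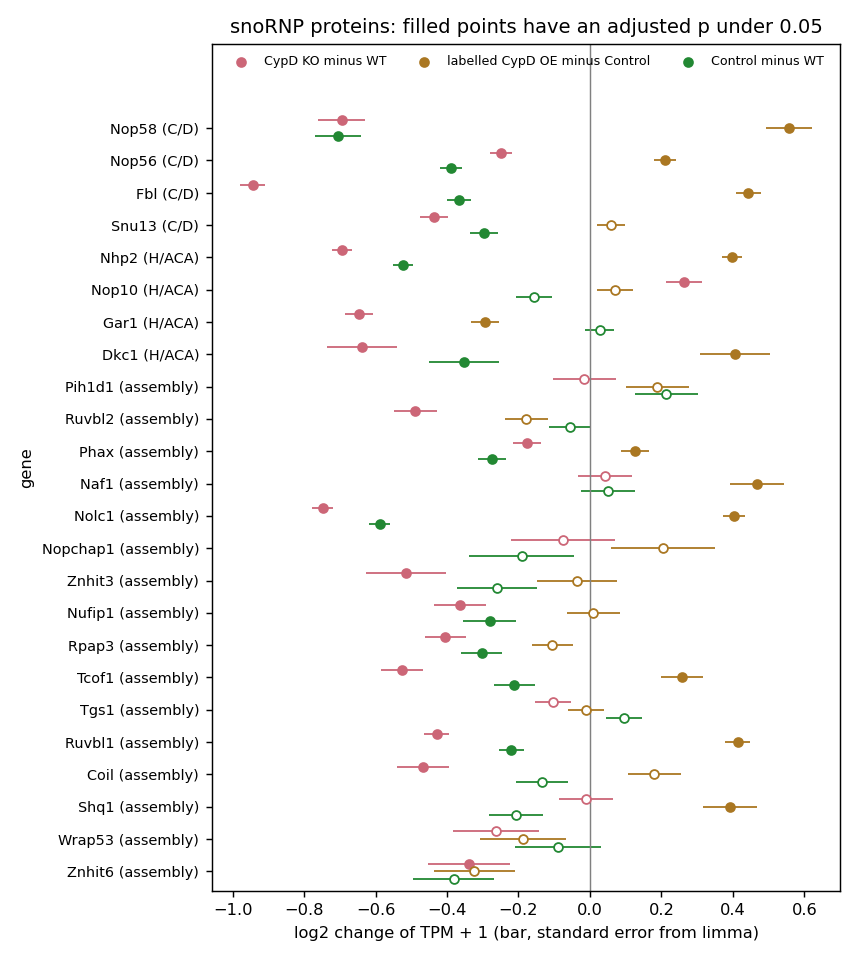
Log2 change of TPM + 1 (x axis, with bars for SE from limma) of the mRNAs of snoRNP proteins (y axis). They are those of the 8 core proteins of box C/D and H/ACA particles and of 16 assembly and trafficking proteins. The comparisons are CypD KO minus WT, labelled CypD OE minus Control and Control minus WT. Filled points have an adjusted p under 0.05 by limma. In KO minus WT 17 filled points lie left of 0 and *Nop10* alone lies right of it; in labelled OE minus Control 11 lie right and *Gar1* alone left.

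Of 16 assembly and trafficking genes 10 were lower and 0 higher in KO by limma (all genes tested: 18.4% lower, 30.1% higher). By limma at an unadjusted p under 0.05 the number higher was also 0. In labelled OE 6 were higher and 0 lower, with 2 lower at an unadjusted p under 0.05 (all genes tested: 19.0% higher, 18.3% lower). *Nolc1*, a nucleolar and Cajal body chaperone of snoRNPs, had 251 and 253 TPM in WT and 148 and 151 in KO (log2 change -0.75 ± 0.03 SE), and 168 and 167 in Control against 225 and 218 in labelled OE (log2 change 0.40 ± 0.03 SE). *Ruvbl1*, an ATPase of the assembly complex, changed by -0.43 in KO and 0.41 in labelled OE, while its partner *Ruvbl2* changed by -0.49 in KO and was not called in labelled OE (log2 change -0.18 ± 0.06 SE, adjusted p = 0.0544). *Naf1* and *Shq1*, which assemble H/ACA particles, were called only in labelled OE, at log2 changes of 0.47 and 0.39, and whether the 2 comparisons differ was not tested.

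Of 12 processing and decay genes 5 were lower and 1 higher in KO (all genes tested: 18.4% lower, 30.1% higher). In labelled OE 7 were higher and 1 lower (all genes tested: 19.0% higher, 18.3% lower). *Dbr1*, which opens the intron lariats from which snoRNAs are released, had 36.1 and 34.3 TPM in WT and 27.2 and 27.3 in KO (log2 change -0.36 ± 0.05 SE, adjusted p = 0.00154), and 27.7 and 26.8 in Control against 31.9 and 32.8 in labelled OE (log2 change 0.24 ± 0.05 SE, adjusted p = 0.012). *Dis3*, an exosome nuclease, had 98.3 and 97.3 TPM in WT and 58.9 and 56.2 in KO (log2 change -0.76 ± 0.04 SE). *Mtrex*, the exosome helicase, rose in labelled OE, from 79.1 and 81.5 TPM to 112 and 108 (log2 change 0.45 ± 0.04 SE). The exception was *Zcchc7*, a zinc knuckle protein of the polyadenylation complex, at 46.0 and 39.2 TPM in Control and 27.4 and 28.8 in labelled OE (log2 change -0.58 ± 0.13 SE, adjusted p = 0.013).

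Nonsense-mediated decay, which degrades spliced host RNAs, was the last list. Of its 10 genes 2 were lower and 0 higher in KO. The share of lower genes was near that of all genes tested (18.4% lower, 30.1% higher). The log2 change of *Smg8* was -0.28 ± 0.06 SE. In labelled OE 4 were higher and 0 lower by limma, and at an unadjusted p under 0.05 the counts against these directions were also 0 (all genes tested at the adjusted threshold: 19.0% higher, 18.3% lower). *Upf3a* had 32.5 and 33.5 TPM in Control and 53.5 and 50.1 in labelled OE (log2 change 0.63 ± 0.06 SE, adjusted p = 0.000447), and *Smg9*, *Smg5* and the helicase *Upf1* changed by 0.53, 0.47 and 0.27. In the labelled OE libraries several hosts and the mRNAs of several of these decay proteins were thus higher, and a relation between them was not tested.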

How the data were processed

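Total RNA from 8 libraries was sequenced by the authors in paired-end reads of 150 bases, trimmed with Cutadapt 3.4, aligned to GRCm39 with STAR 2.7.8a and quantified with RSEM 1.3.1; the authors' own tests used DESeq2 1.26.0. The deposited values are TPM per gene, scaled by the authors to a fixed total in each library. Their annotation release is not given in the sources used here. GENCODE M39 was used for lengths, positions and hosts, and 54749 of 55414 genes were in it. The members and gene lists were chosen with earlier results of these data known. Genes were named by rule: *Ppif*, hosts called in either main comparison, the 5 most abundant hosts, called short RNAs whose libraries did not overlap, the 5 highest of each class and up to 4 of each list.

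log2(TPM + 1) of 13526 genes that reached 1 TPM in 2 or more libraries was fitted with limma 3.58.1 in R 4.3.3 (4 group means over 8 libraries, eBayes with trend), two-sided, with Benjamini-Hochberg adjustment over all genes tested and a threshold of 0.05. On simulated data for CypD KO minus WT, 75.5% of 200 changed genes (log2 change of 1) among 13526 were recovered, with 3 false calls. That simulation drew independent normal noise and changed only these 200 genes, where 48.4% of genes were called in the real comparison. It therefore does not measure the share of false calls in these data. TPM holds no depth. Estimated fragments were TPM divided by the worth of 1 fragment at that length: 0.082 to 0.0975 TPM at 1000 effective bases, with 83.9% to 86.7% of low values of longer genes and 75.3% to 82.8% of those of short genes within 0.15 of a whole number. Alternatives were pseudocounts of 0.1 and 10, filters, rescalings, a fit of 4 libraries, no trend, a replicate block and leaving out each library.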

Additional observations from a re-analysis of the deposited data

How the results depend on the processing

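Groups of 2 libraries, and short RNAs of 1 to 8 fragments, limit what these tests can show. Of the counts of called members under the alternatives other than leaving out a library, 147 stayed within 1.5 times the value reported and 15 moved. In CypD KO minus WT, hosts called lower were 3 with no filter on low TPM and 8 after median-of-ratios rescaling, and genes of the 5 protein lists called higher were 1 after that rescaling. In labelled CypD OE minus Control, hosts called lower were 2 in a fit of the 4 libraries, and short RNAs called lower were 0 with no filter. In Control minus WT, hosts called lower were 4 with no filter, 4 with eBayes without trend and 3 in the fit of 4 libraries, and hosts called higher were 1 in that fit. Short RNAs called higher were 1 with no filter and 1 without trend. List genes called higher there were 0 with no filter, after rescaling and in the fit of 4, and those called lower were 14 in the fit of 4. The cause of these moves was not tested. For single genes 326 results kept direction and side of the threshold, 27 lost a call, 3 gained one and 1 reversed, *Gas5* in KO minus WT, at -0.039 after rescaling.

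With each library left out in turn, list genes called ranged from 21 to 23 lower and 2 to 2 higher in KO minus WT, from 16 to 18 higher and 1 to 3 lower in labelled OE minus Control, and from 15 to 16 lower and 0 to 0 higher in Control minus WT. Hosts called ranged from 3 to 5 lower and 0 to 1 higher, from 4 to 5 higher and 0 to 1 lower, and from 3 to 7 lower and 0 to 0 higher in the same order. Short RNAs called ranged from 2 to 2 lower and 0 to 2 higher, from 2 to 4 higher and 0 to 2 lower, and from 2 to 3 lower and 0 to 2 higher. In labelled OE minus Control the sign turned in 3 hosts that were not called: *Snhg3* (range -0.017 to 0.013, positive without Control replicate 2 or labelled OE replicate 2), *Snhg6* (range -0.057 to 0.14, negative without Control replicate 1) and *Snhg8* (range -0.14 to 0.19, negative without Control replicate 1 or labelled OE replicate 1).

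Libraries share only a replicate number: deviations of same-numbered libraries from their group means correlated at 0.11 for KO and WT, -0.002 for labelled OE and Control, and -0.02 for Control and WT. With a replicate block 6 hosts were lower in KO minus WT, 5 higher and 1 lower in labelled OE minus Control, and 7 lower in Control minus WT, where *Snhg16* lost its call (adjusted p = 0.058). The block changed no other call among the single genes named.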
